A study of Mus musculus with 12 samples.

Results

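A hair cell of the cochlea carries a bundle of stereocilia, actin-filled projections of the apical surface that bend when sound moves the tectorial membrane and so open the mechanotransduction channels at their tips. The core of each stereocilium is made of actin filaments held by crosslinking proteins, myosin motors carry cargo along that core to the tip, and extracellular links join neighbouring stereocilia to each other and the tallest row to the tectorial membrane. Several proteins of these 3 systems are encoded by genes whose variants cause hereditary hearing loss. The genes considered here were a list of 10 such genes: Strc, Ptprq and Gpr98 for the links, Espn, Fscn2, Clic5 and Grxcr1 for the core and its anchoring, Myo15 and Myo3a for the motors, and Loxhd1, whose product lies along the plasma membrane of the stereocilia. They were matched to the probes by gene name, which gave 9 of the 10 genes and 282 of the 165984 probes of the array. Loxhd1 was not analysed here.

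Signals came from 12 single-color exon arrays, 4 each for the apical, middle and basal turn of the cochlea of male C57BL/6 mice aged 6 weeks, with 25 ng of total RNA labeled per array. No animal had been treated and no allele differed, so that the 3 groups differ by position along the tonotopic axis, with low frequencies at the apex and high frequencies at the base. The dissected tissue of each turn held the organ of Corti together with the spiral ganglion neurons and the lateral wall, so hair cells were a small part of what was labeled. In such tissue, fewer hair cells and less RNA per hair cell cannot be told apart. The 4 arrays of a turn also shared a slide, so turn and slide cannot be told apart either. Each array was scaled to a common 75th percentile of 640.8, which lay between 534.0 and 721.6 before scaling, and between 77.4% and 81.4% of the spots on an array were well above background. A gene's signal below is the geometric mean over its probes in these scaled units, and because probes differ in brightness, signals are compared between turns and not between genes. The labels name 4 samples per turn, and the methods name 4 mice, so the turns share animals. Which arrays share an animal is not given in the sources used here, and the p-values below do not use a pairing.

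Each probe is a 60-base sequence from an exon, and the gene values rest on how these probes behaved. Probes are numbered within a gene by genome position, from 5′ to 3′ on its strand. The following 6 probes include, for Strc and for Espn, a probe that differed between turns and a probe that did not. The first 3 were chosen by signal and detection, and the last 3 after their values had been seen. Capitals mark the longest unbroken run of G and C.
Strc probe 6 of 26: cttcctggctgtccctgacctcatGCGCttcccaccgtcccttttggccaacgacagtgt
Ptprq probe 18 of 43: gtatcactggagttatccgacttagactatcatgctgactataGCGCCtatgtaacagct
Grxcr1 probe 2 of 4: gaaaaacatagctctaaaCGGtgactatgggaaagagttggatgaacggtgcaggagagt
Strc probe 22 of 26: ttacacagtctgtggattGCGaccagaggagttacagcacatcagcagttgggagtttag
Espn probe 12 of 15: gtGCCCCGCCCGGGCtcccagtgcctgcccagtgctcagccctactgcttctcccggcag
Espn probe 11 of 15: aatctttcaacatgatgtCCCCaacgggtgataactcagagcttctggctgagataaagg
On the mouse build mm9 the Strc probes lie on the minus strand, probe 6 at chr2:121200935-121200994 and probe 22 at chr2:121190757-121190816. The Ptprq probe lies at chr10:107090544-107090603 on the minus strand and the Grxcr1 probe at chr5:68501682-68501741 on the plus strand. The Espn probes lie on the minus strand, probe 12 at chr4:151502442-151502501 and probe 11 at chr4:151502597-151502656.

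Most of the genes were brighter toward the apex. All 9 genes had a higher mean in the apical than in the basal turn, and for 8 of them every apical array lay above every basal array, a separation found in 16.9% of all genes. By the F test of limma across the turns combined with a 2-fold limit, 4 of the 9 genes, Strc, Ptprq, Grxcr1 and Fscn2, were higher in the apical turn, against 3.27% of all 19505 genes. By the adjusted p of the comparison itself, 8 of the 9 were higher in the apical turn, against 17.6% of all genes, and none was higher in the basal turn, against 21.6% of all genes. The median difference between apical and basal turn was 0.88 on the log2 scale over the 9 genes and -0.04 over all genes. With normexp background correction in place of the processed signal none of the 9 reached 2-fold, the largest difference being 0.94 for Ptprq, while 8 still passed the test of the comparison by limma.

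**Figure D1:**
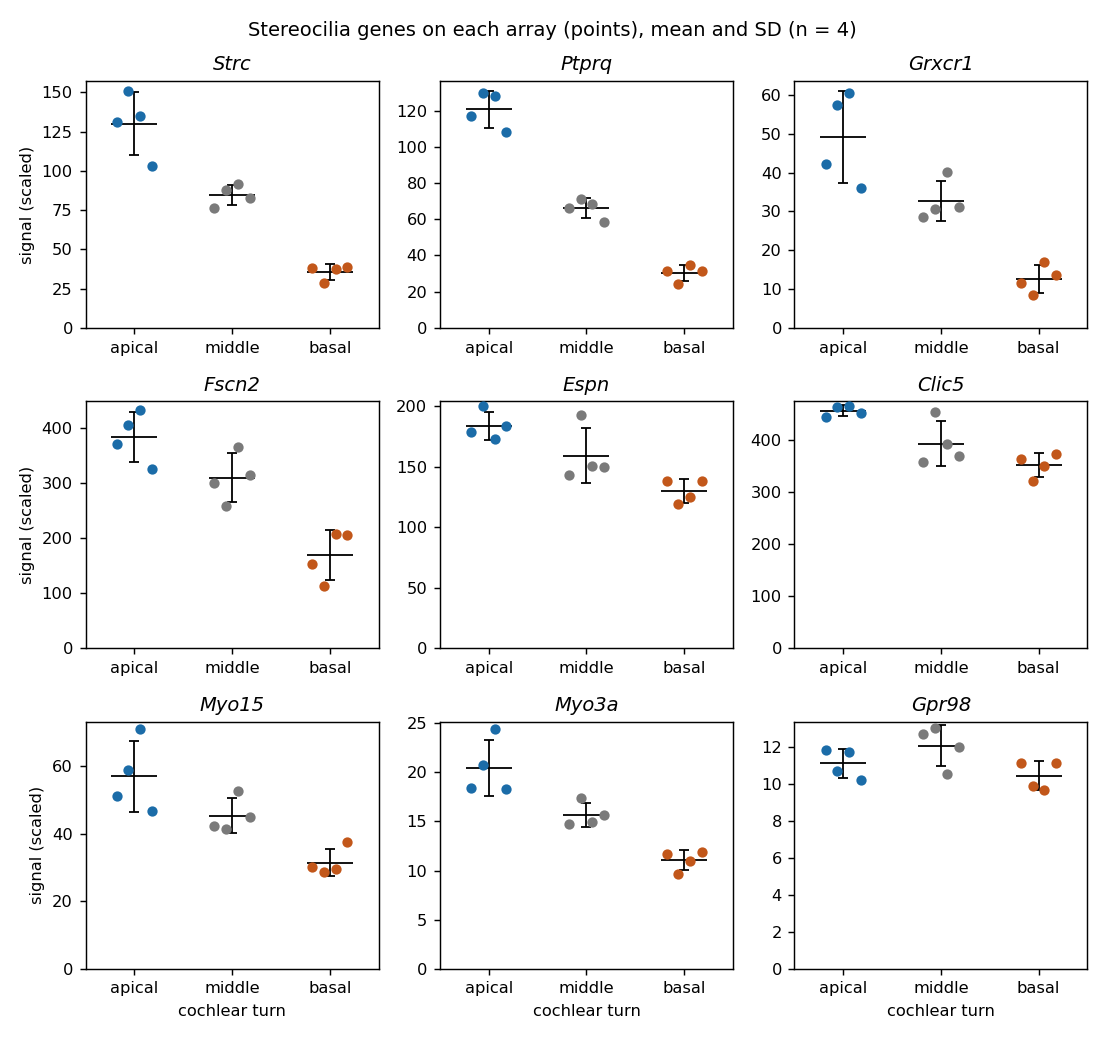
Signal of each gene (vertical axis, scaled intensity, linear and starting at 0) on the 4 arrays of the apical, middle and basal turn (points), with the mean and SD (n = 4) in black. Strc falls from 130 to 84.6 to 35.6 between apical, middle and basal turn with no overlap of any 2 turns, while the Gpr98 arrays of the 3 turns lie between 9.65 and 13.

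Among the genes for the links, Strc encodes stereocilin, an extracellular protein of the connectors between the tips of outer hair cell stereocilia and of their attachment to the tectorial membrane. Its signal was 131, 151, 135 and 103 on the 4 apical arrays, 76.5, 87.6, 91.5 and 82.9 on the middle arrays, and 38.0, 28.3, 37.3 and 38.6 on the basal arrays. No 2 turns overlapped. The apical signal was 3.65-fold the basal signal, a log2 difference of 1.87 (SE 0.128, adjusted p = 2.2e-06 by limma). The step from base to middle turn was 1.26 (SE 0.128, adjusted p = 0.00012) and the step from middle turn to apex 0.61 (SE 0.128, adjusted p = 0.014), so that the middle turn stood 67.4% of the way from base to apex on the log2 scale.

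Ptprq encodes a receptor-like inositol lipid phosphatase that forms the shaft connectors near the base of the stereocilia. The apical arrays gave 117, 130, 128 and 108, the middle arrays 66.4, 71.4, 68.2 and 58.6, and the basal arrays 31.6, 24.1, 34.7 and 31.6. Again the 3 turns did not overlap. The fitted difference between apical and basal turn was 3.98-fold or 1.99 on the log2 scale (SE 0.111, adjusted p = 5.8e-07), and that between apical and middle turn 0.87 (SE 0.111, adjusted p = 0.0014). As 12 of its 43 probes were above background on no basal array, the basal level and so the fold rest in part on signals at background. Its middle turn lay 56.4% of the way from base to apex.

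Gpr98, listed today as Adgrv1, encodes the very large adhesion receptor of the ankle links. It was the exception among the 9 genes. The apical arrays gave 11.8, 10.7, 11.7 and 10.2, the middle arrays 12.7, 13, 10.5 and 12, and the basal arrays 11.1, 9.90, 9.65 and 11.1. The turns overlapped in each comparison, and the log2 difference between apical and basal turn was 0.09 (SE 0.0819, adjusted p = 0.43). Most of the Gpr98 signal was at background, since 73 of its 90 probes were well above background on no array. The 8 probes above background on all 12 arrays had a median difference of -0.13, and 1 of them, probe 23, was higher in the basal turn, with 538 against 729 (log2 difference -0.44, adjusted p = 0.0014). Of all 90 probes 4 were higher in the apical turn, none of them above background on all 12 arrays. Among these 4, probe 6 was above background on 7 arrays, with a log2 difference of 0.70 (adjusted p = 0.034 by limma). The direction of the Gpr98 gene value turned with the scaling of the arrays, as given with the other scalings further on.

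Espn and Fscn2 encode actin-bundling proteins, espin and fascin 2, which hold the filaments of the core together. Fscn2 gave 371, 406, 432 and 326 on the apical arrays, 300, 258, 365 and 315 on the middle arrays, and 153, 114, 208 and 206 on the basal arrays. The basal arrays lay below all others, while apical and middle arrays overlapped. The apical signal was 2.31-fold the basal signal, 1.21 on the log2 scale (SE 0.184, adjusted p = 0.00044), and the middle turn was already 0.89 above the base (SE 0.184, adjusted p = 0.0074). All 5 of its probes passed the test of the comparison, with differences between 0.97 and 1.39.

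Espn differed less as a gene. It gave 179, 200, 173 and 184 on the apical arrays, 143, 193, 151 and 150 on the middle arrays, and 138, 119, 125 and 138 on the basal arrays. Apical and basal arrays did not overlap, and the log2 difference was 0.50 (SE 0.0952, adjusted p = 0.0017). The middle turn did not pass the test against either neighbour, with 0.28 above the base (adjusted p = 0.058) and 0.22 below the apex (adjusted p = 0.14). Without middle replicate 2 the middle turn was 0.31 below the apex (adjusted p = 0.032). On that array Espn probe 4 read 303, against 7.51 to 23.5 on the other middle arrays. With all arrays but only probes well above background on all 12, both steps passed the limma test. The middle turn was then 0.35 below the apex (adjusted p = 0.006) and 0.25 above the base (adjusted p = 0.014).

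Clic5 encodes a protein of the chloride intracellular channel family found at the base of the stereocilia, where it helps to tie the membrane to the actin core. It gave 444, 465, 466 and 453 on the apical arrays, 358, 454, 393 and 370 on the middle arrays, and 365, 322, 350 and 374 on the basal arrays. The apical arrays spread least, with an SD of 10.5, and lay above all basal arrays, but 1 middle array, replicate 2, reached them. On that array Clic5 probe 5 read 435, against 134 to 147 on the other middle arrays, and without the array the apical turn was 0.29 above the middle turn (adjusted p = 0.025), in place of 0.22 (adjusted p = 0.08). The log2 difference between apical and basal turn was 0.38 (SE 0.0754, adjusted p = 0.0023), 1.30-fold, and its 6 probes, each well above background on all arrays, differed by 0.27 to 0.47, 5 of them past the test.

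Grxcr1 encodes a cysteine-rich protein of the stereocilia with a glutaredoxin-like domain. It gave 42.2, 57.5, 60.6 and 36.0 on the apical arrays, 28.6, 30.7, 40.2 and 31.2 on the middle arrays, and 11.6, 8.39, 17.1 and 13.5 on the basal arrays. The basal arrays lay below all others, and none of the 4 Grxcr1 probes was well above background on any of them, so the basal level has only an upper bound. The fitted log2 difference was 1.97 (SE 0.224, adjusted p = 6.8e-05), and against the bound the apical signal, 48.0 over 27.2, was at least 1.76-fold higher than the basal signal. In this bound each basal value is the higher of the probe's own signal and the lowest signal of any probe well above background on that array, so the 2-fold limit was passed by the fitted value and not by the bound. Between middle and basal turn the fitted difference was 1.40 (SE 0.224, adjusted p = 0.002) and the bound at least 1.19-fold.

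Of the 2 motors, Myo15 encodes myosin XVa, which brings whirlin to the tips of the stereocilia and is required for their elongation. It gave 51.2, 58.8, 70.9 and 46.8 on the apical arrays, 42.2, 41.4, 52.6 and 45.0 on the middle arrays, and 30.1, 28.6, 29.6 and 37.5 on the basal arrays. Apical and middle arrays overlapped, and the basal arrays lay below both. The apical signal was 1.80-fold the basal signal, 0.85 on the log2 scale (SE 0.134, adjusted p = 0.00056), with 0.53 between middle and basal turn (SE 0.134, adjusted p = 0.018). As 25 of its 61 probes were above background on no basal array, the fold rests in part on signals at background. The 24 probes above background on all 12 arrays had a median difference of 0.28 between apical and basal turn.

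Myo3a encodes myosin IIIa, a motor that carries espin 1 to the tips. It gave 18.4, 20.7, 24.4 and 18.3 on the apical arrays, 14.7, 17.4, 14.9 and 15.7 on the middle arrays, and 11.7, 9.63, 11.0 and 11.9 on the basal arrays. The 3 turns did not overlap although the signal was low, and none of the 32 probes was well above background on all 12 arrays. The log2 difference between apical and basal turn was 0.88 (SE 0.103, adjusted p = 8.2e-05), and that between apical and middle turn 0.38 (SE 0.103, adjusted p = 0.039). Since 24 of the 32 probes were above background on no basal array, the size of these differences rests largely on signals at background. The difference from the middle turn passed the test in 13 of 28 alternative settings, and not with the sample number as a replicate block (adjusted p = 0.059), with spike-in scaling (adjusted p = 0.18) or with normexp correction (adjusted p = 0.87). On apical replicate 2 Myo3a probe 3 read 232, against 8.13 to 8.63 on the other apical arrays. Without that array the apical turn was 0.37 above the middle turn and did not pass the limma test (adjusted p = 0.098).

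Between apical and middle turn no gene of the 9 reached 2-fold by limma's F test, against 0.297% of all genes, and the same held with an unmoderated F test. Strc, Ptprq and Myo3a were higher in the apical turn by the adjusted p of that comparison, against 4.42% of all genes. With the sample number as a replicate block 2 of these passed, and with single arrays left out 2 to 5 genes, the 5 without middle replicate 2. Of the 9 genes, 7 had an unadjusted p under 0.05. Between middle and basal turn Strc, Ptprq and Grxcr1 were higher in the middle turn by the F test and 2-fold, against 2.2% of all genes. By the adjusted p, 6 of the 9 were higher in the middle turn, against 11.6% of all genes. Both comparisons use the same middle arrays. In the 8 genes other than Gpr98 the middle turn lay between the other turns, from 41.4% of the way from base to apex in Clic5 to 73.9% in Fscn2.

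**Figure D2:**
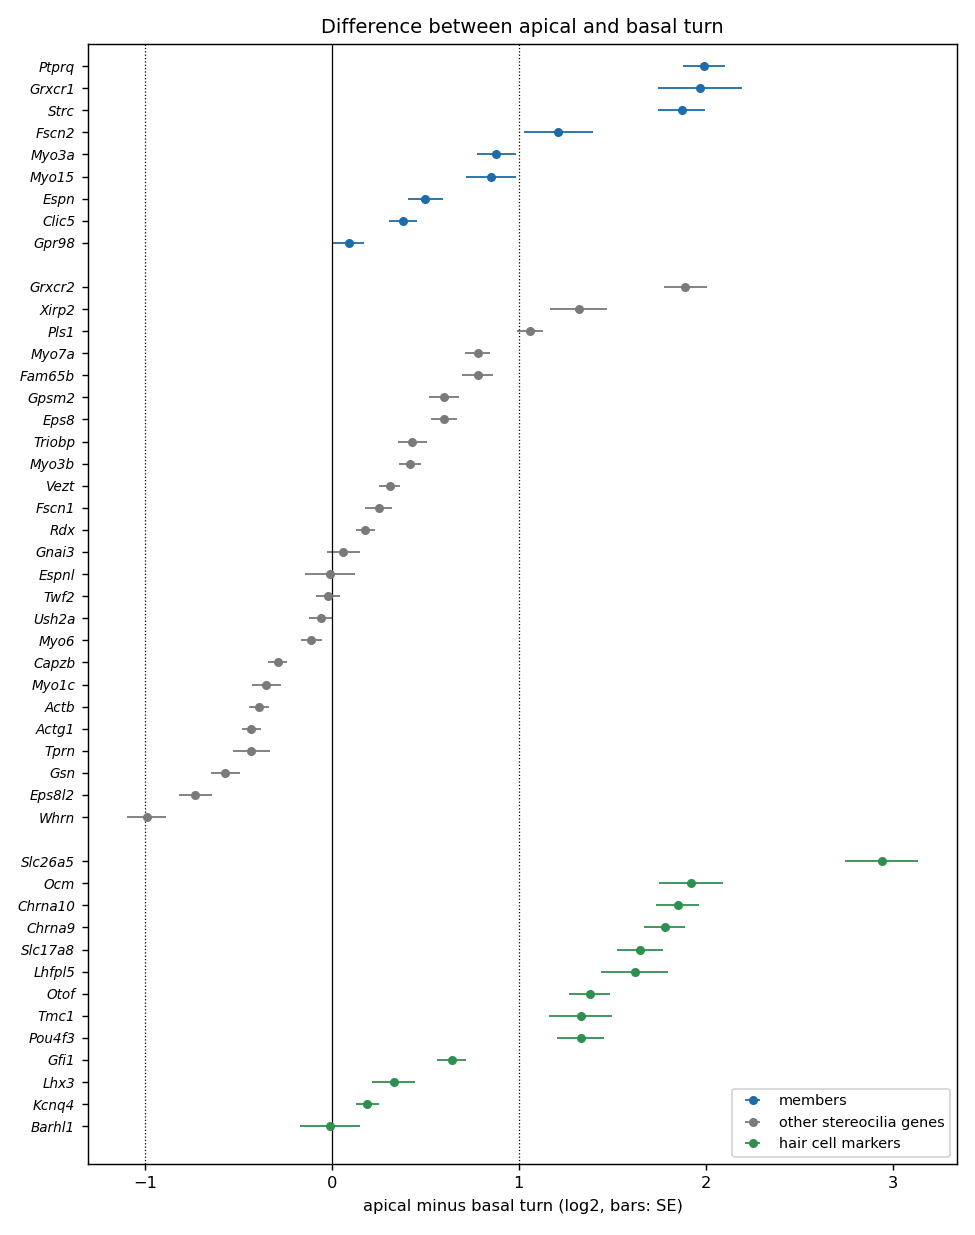
Log2 difference between apical and basal turn (horizontal axis) for the 9 stereocilia genes, 25 other genes of the stereocilia and 13 markers of hair cells, with the standard error as bars; dotted lines mark 2-fold. The 9 genes run from 0.09 to 1.99, the other stereocilia genes lie on both sides of 0, from -0.99 to 1.89, and the hair cell markers run from -0.01 to 2.94.

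The other genes of the bundle did not all move the same way. Of 26 further stereocilia genes, covering actin, other crosslinkers and motors, tip and ankle proteins and capping proteins, 25 were matched. Grxcr2 (log2 difference 1.89, adjusted p = 1e-06), a relative of Grxcr1, Xirp2 (1.32, adjusted p = 8e-05), an actin-binding repeat protein, and Pls1 (1.06, adjusted p = 1.8e-06), the crosslinker plastin 1, were higher in the apical turn by the F test and 2-fold. By limma's F test and 2-fold 0 were higher in the basal turn, against 1.12% of all genes. With spike-in scaling 1 was higher in the apical and 2 in the basal turn. By the adjusted p of the comparison 12 of the 25 were higher in the apical and 8 in the basal turn, beside the 17.6% and 21.6% of all genes, and their median difference was 0.06. Several of these 25 genes are also used by other cells of the cochlea, the cytoplasmic actins in particular.

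Markers of hair cells differed between the turns in the same direction. The geometric mean of 6 markers of both hair cell types lay between 157 and 180 on the apical, 150 and 171 on the middle, and 77.2 and 110 on the basal arrays. The 5 outer hair cell markers gave 401 to 511, 310 to 344 and 109 to 155, and the 2 inner hair cell markers 186 to 219, 152 to 162 and 54.6 to 81.0. By the adjusted p of the comparison between apical and basal turn, 5 of 6, 5 of 5 and 2 of 2 of them were higher in the apical turn. Slc26a5, the motor protein prestin of outer hair cells, had the largest difference of the 13 markers, 2.94 (SE 0.194). Slc17a8, the glutamate transporter of inner hair cells, had 1.65 (SE 0.123), Otof, the otoferlin of their synapses, 1.38 (SE 0.110), and Pou4f3, a transcription factor of both hair cell types, 1.33 (SE 0.125).

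Other cells of the tissue differed as well. All 7 markers of spiral ganglion neurons were at least 2-fold higher in the apical than in the basal turn, with list means of 2640 to 3480 on the apical and 531 to 2270 on the basal arrays. Of the 7 supporting cell markers 3 were higher in the apical and 3 in the basal turn by the adjusted p. All 6 Schwann cell markers were higher in the apical turn, 6 of 7 stria vascularis markers and 4 of 4 fibrocyte markers higher in the basal turn. Of the 6 bone markers 1 and of the 4 immune cell markers 3 were higher in the basal turn, and the 4 blood markers ran from -0.31 to 0.63. No list lacked detection, as every marker had a probe above background on some array. The part of cell composition in the differences of the stereocilia genes was not tested.

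How the genes stood relative to the hair cells depended on the markers chosen. When each array was scaled to the 6 markers of both hair cell types, the log2 difference between apical and basal turn was 1.12 for Ptprq (SE 0.113, adjusted p = 1.1e-06), 1.10 for Grxcr1 (SE 0.176, adjusted p = 4.3e-05) and 0.99 for Strc (SE 0.108, adjusted p = 1.8e-06). Fscn2 kept 0.33 (adjusted p = 0.033), and Myo3a and Myo15 stood at 0.01 and -0.03, with adjusted p of 0.94 and 0.83. Espn at -0.37, Clic5 at -0.50 and Gpr98 at -0.78 were then lower in the apical turn, with adjusted p of 0.011, 0.00071 and 2.1e-05.

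When the 5 outer hair cell markers were used, a choice made after looking at the data, the differences of Strc, Ptprq and Grxcr1 were close to 0. Strc had 0.13 (SE 0.112, adjusted p = 0.26), Grxcr1 0.24 (SE 0.160, adjusted p = 0.16) and Ptprq 0.26 (SE 0.119, adjusted p = 0.047). The other 6 genes were lower in the apical turn, from -0.53 in Fscn2 to -1.64 in Gpr98. The median over all genes was -1.77 here, again below each of the 9 genes. The signed order of the 9 genes was the same under both marker scalings as under the 75th percentile, since a common factor per array moves them together. From the highest to the lowest signed value it ran Ptprq, Grxcr1 and Strc, then Fscn2, then Myo3a and Myo15, then Espn and Clic5, then Gpr98. Under the 75th percentile, neighbours within these groups were no further apart than the sum of their standard errors, and the place of Grxcr1 rests on a basal level that has only a bound.

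**Figure D3:**
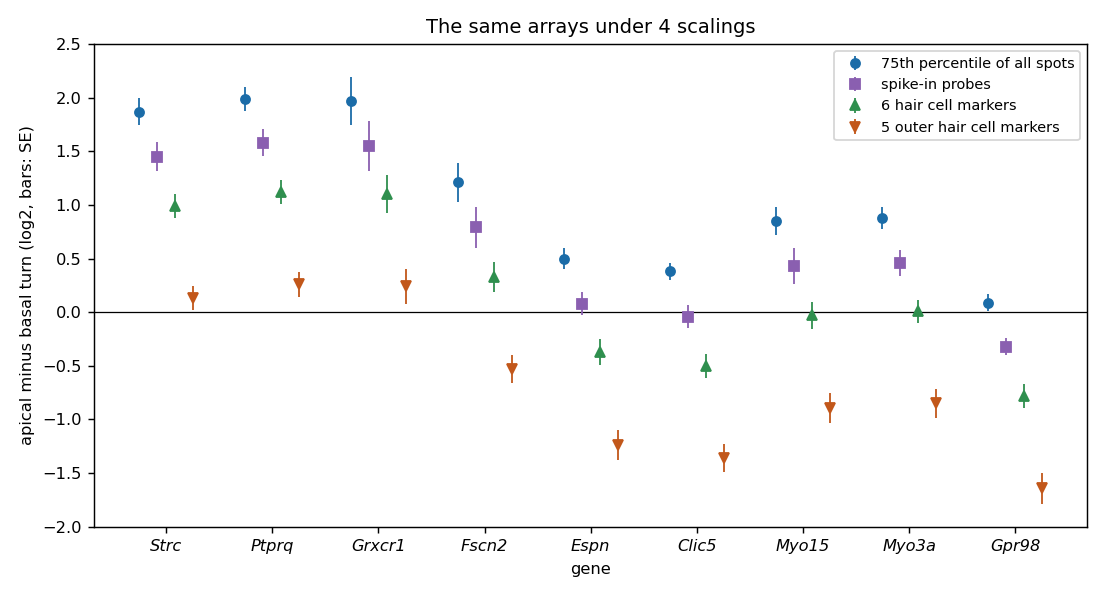
Log2 difference between apical and basal turn (vertical axis, bars are standard errors) of each gene with the arrays scaled to the 75th percentile of all spots, to the spike-in probes, to 6 markers of both hair cell types or to 5 outer hair cell markers. Strc goes from 1.87 to 1.45, 0.99 and 0.13 in that order, and Gpr98 from 0.09 to -0.32, -0.78 and -1.64.

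The level of all genes also moved with the scaling. The median over all genes of the difference between apical and basal turn was -0.04 with the 75th percentile, -0.08 with quantile normalization, -0.15 with scaling to the median and -0.45 with scaling to 10 spike-in probes, beside 0.88, 0.67, 0.77 and 0.46 for the 9 genes. With the spike-in probes, Strc, Ptprq and Grxcr1 still had 1.45, 1.58 and 1.55, Fscn2 0.79, Myo3a 0.46 and Myo15 0.43, while Espn had 0.08 (adjusted p = 0.5) and Clic5 -0.04 (adjusted p = 0.73). Gpr98 was then lower in the apical turn, with -0.32 (adjusted p = 0.0036). By the F test and 2-fold this scaling left 3 of the 9 genes, without Fscn2, and by the adjusted p 6 were higher in the apical and 1 in the basal turn.

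The probes of one gene did not always differ alike. Of the 282 probes 132 were higher in the apical turn by limma's adjusted p over all probes, against 18% of all probes, and 2 were higher in the basal turn, against 16.4% of all probes. For 125 of the 282 every apical array lay above every basal array, against 17.2% of all probes. Of the 84 probes well above background on all 12 arrays, 54 were higher in the apical turn, and 94 probes were above background on no array. The 18% covers probes of any brightness, and the share among all probes of the array above background on all 12 arrays is not given here. Probes of a gene share the same RNA and are no replicates of a turn.

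**Figure D4:**
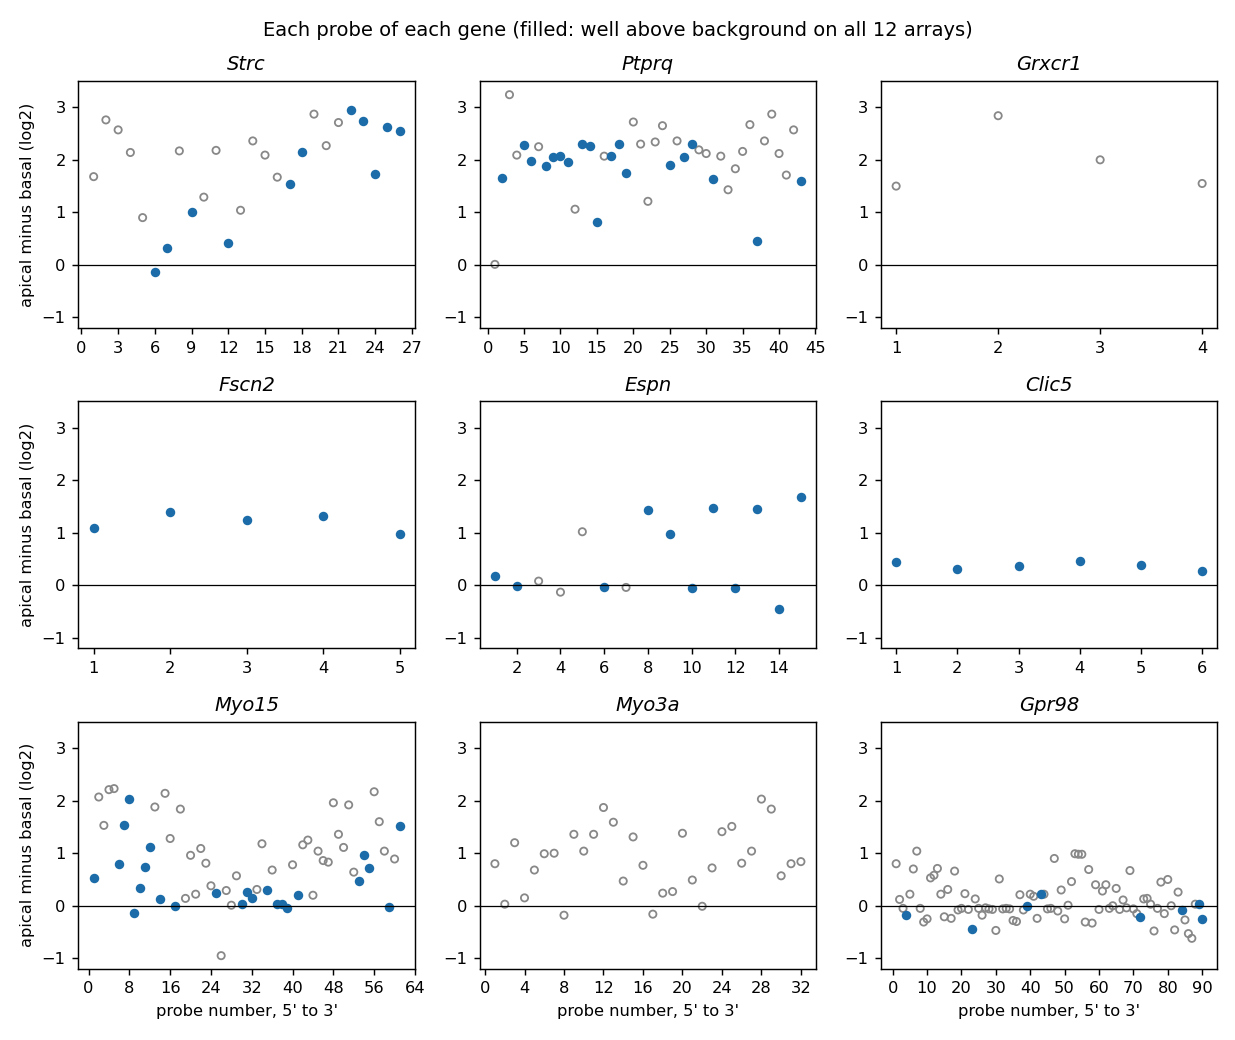
Log2 difference between apical and basal turn (vertical axis) of every probe of the 9 genes, in genome order from 5′ to 3′ on the gene's strand (horizontal axis). Filled points are probes well above background on all 12 arrays, and open points are the rest. Ptprq and Fscn2 stay above 0 along their length. In Espn the 5 probes that passed the test as higher in the apical turn, at 0.97 to 1.68, lie from probe 8 to probe 15. Probes at -0.45 to -0.06 lie among them. Espn probe 5, at 1.02, did not pass the test.

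Ptprq was the most even of the large genes, with 42 of its 43 probes higher in the apical turn. The exception, probe 1 at the 5′ end, was above background on no array. The Ptprq probe printed above, probe 18, gave 287 in the apical, 146 in the middle and 57.8 in the basal turn, a log2 difference of 2.31 (SE 0.152, adjusted p = 3.6e-06). Of the 12 Ptprq probes above background on no basal array, 8 were above it on all 4 apical arrays, with bounds of at least 2.20-fold to at least 4.12-fold. The adjusted p of these 8 by limma lay between 2.1e-06 and 0.00072. It belongs to the fitted differences, and the bounds were not tested. The 4 Grxcr1 probes were likewise all higher in the apical turn. The printed probe 2 gave 58.7 against a bound of 27.2 in the basal turn, at least 2.16-fold. Its fitted log2 difference, from the measured signals, was 2.84 (SE 0.344, adjusted p = 0.00018 by limma).

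In Strc 23 of 26 probes were higher in the apical turn. Among the 11 probes above background on all 12 arrays, probes 6, 7, 9 and 12 had log2 differences of -0.14 to 1.00 and those from probe 17 to the 3′ end 1.54 to 2.94. Of the other 15 probes, 9 were above background on no basal array and so have only a bound there, and for 5 of these that were above background on all apical arrays it ran from at least 1.60-fold to at least 4.07-fold. Probe 22, printed above, gave 458, 281 and 59.5 in the apical, middle and basal turn (log2 difference 2.94, SE 0.284, adjusted p = 4.3e-05). Probe 6, the brightest Strc probe, gave 1070, 1170 and 1180 and did not pass the test (log2 difference -0.14, SE 0.0988, adjusted p = 0.32). Probe 6 is 60% G and C and probe 22 is 48.3%. Since the gene value averages all probes, the 1.87 of Strc includes both.

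Espn was split. Of its 15 probes 5 were higher in the apical turn, probes 8, 9, 11, 13 and 15, with log2 differences of 1.44, 0.97, 1.48, 1.45 and 1.68 and adjusted p between 4e-05 and 5e-04. Between them lay probes 10 and 12 with -0.06 each, and probe 14 with -0.45 (adjusted p = 0.00052), which was higher in the basal turn. By the array's annotation, the transcript positions of probes 8 to 13 were 653, 911, 63, 1975, 317 and 2301. These positions do not rise in order, so the probes cannot all be placed on 1 transcript in this order. Which transcript each probe reads was not tested. None of the first 7 probes passed the test, although probes 1, 2 and 6 were above background on all 12 arrays, with differences of 0.17, -0.02 and -0.04. Probes 12 and 14 were by far the brightest, at 131000 and 8010 in the apical turn and 136000 and 10900 in the basal turn, while the 5 probes that were higher in the apical turn lay between 135 and 754 there.

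The neighbouring Espn probes 11 and 12 show the contrast in sequence as well as in signal. Probe 11 gave 246, 147 and 88.4 in the apical, middle and basal turn and is 45% G and C. Probe 12 gave 131000, 123000 and 136000, is 73.3% G and C and opens with a run of 13 G and C bases after its first 2 bases. Whether probe 12 binds RNA of other genes was not tested. When the linear signals of the probes were averaged, so that the brightest probe decides, the Espn difference was -0.07 (adjusted p = 0.45).

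Myo15 was higher in the apical turn in 30 of its 61 probes, and these lay toward both ends of the probed stretch. By the array's annotation that stretch runs from transcript position 3790 to 11709, so it does not start at the 5′ end of the transcript. Of the 20 probes nearest the 5′ end of the stretch 13 were higher in the apical turn, of the 21 middle probes 3, and of the 20 nearest its 3′ end 14. Probe 8 gave 260, 192 and 63.6 in the apical, middle and basal turn (log2 difference 2.03, adjusted p = 0.00024), and probe 61 at the 3′ end 683, 573 and 238 (1.52, adjusted p = 0.00011). Among the 24 Myo15 probes above background on all 12 arrays, 13 did not pass the test, including bright ones such as probe 17 with 620, 600 and 619 and probe 59 with 588, 578 and 599.

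Myo3a had 14 of 32 probes higher in the apical turn, spread along the gene, with 7 of the 11 nearest the 3′ end. Over the 84 probes above background on all arrays, the 54 higher in the apical turn had a median G and C content of 45%, and the 28 that passed in neither direction 55%. These groups hold different genes. Ptprq gave 19 of the 54 and 0 of the 28, and Gpr98 gave 0 and 7, each with a median of 45%. Within Espn both medians were 60%, and within Myo15 both were 55%. Strc had 55% and 57.5% (9 and 2 probes), and Clic5 41.7% and 55% (5 and 1). The pooled medians therefore do not show a difference in G and C content within genes.

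Across the 12 arrays, the mean log2 value of the 9 genes was most like that of Pcdh15, with a Pearson correlation of 0.991, followed by Mybpc1 with 0.990, Lrtm2 and Otof with 0.988 each, Ocm and Kcna10 with 0.986 each, Slc26a5 with 0.984 and Ttc24 with 0.983. Pcdh15, protocadherin 15 of the tip link, gave 67.8 to 87.7 on the apical, 48.0 to 57.9 on the middle and 23.4 to 34.1 on the basal arrays. Otof, Ocm and Slc26a5 are among the hair cell markers given above. The 12 points share the scaling and fall into 3 turns, so these values describe the likeness of the profiles. Of the 9 genes, Strc followed the mean of the other 8 most closely, with 0.990, and Gpr98 least, with 0.394.

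Arrays of one turn differed together. Basal replicate 2 was the lowest basal array for 8 of the 9 genes, and it was also the lowest for the outer hair cell markers, at 109, the inner hair cell markers, at 54.6, and the neuron markers, at 531. Apical replicate 4 was the lowest apical array for 7 of the 9. It was also the lowest apical array for the 3 lists of hair cell markers, at 157, 401 and 186, and the highest for the bone markers, at 861 against 158 to 297, the blood markers, at 2300 against 786 to 1020, and the immune cell markers, at 218 against 150 to 188. The part of these other tissues in its values was not tested. Leaving out any single array left 4 genes higher in the apical than in the basal turn by the F test and 2-fold, and 8 by the adjusted p of the comparison.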

How the data were processed

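The authors hybridized Cy3-labeled RNA to 12 exon arrays and deposited, per the file headers, spot intensity values made with Agilent Feature Extraction 10.7.3.1: a background-subtracted processed signal, the mean and local background signals, and other columns with quality flags. The authors' value table held the same intensity as the processed signal. Positions refer to mm9.

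Of 180880 spots per array, 7914 controls and 622 flagged spots were left out, which removed 119 probes and left 165865 probes of 19505 genes. Signals were scaled to the 75th percentile, log2 transformed and averaged over the probes of a gene name. No low-signal filter or pseudocount was used, and 0 spots were saturated. Turns were compared over all 12 arrays with limma 3.58.1 in R 4.3.3 (lmFit, eBayes), Benjamini-Hochberg adjusted over all genes or all probes. A gene was called at an adjusted p of the F test under 0.05 and 2-fold. Scripts were tested on simulated data. The number of arrays limits the precision.

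Members, lists and tests were chosen with earlier results of these data known. All matched members were named, other stereocilia genes only where called, and the 8 genes with the highest correlation. Printed probes were the ones well above background on most arrays, then the brightest, in Strc, Ptprq and Grxcr1. Because no annotation of coding exons was at hand, the first and last probe of a gene and probes with no open reading frame were passed over. Alternatives were quantile, median, spike-in and hair cell marker scaling, normexp (offset 50), 16 added before log2, other probe summaries, filters on dim and flagged probes, other tests, a 1.5-fold limit, a replicate block, the authors' value table, and each array left out. The methods name 4 mice for the 3 turns, but whether a sample number marks a mouse is not given in the sources used here. Deviations of same-numbered arrays from their turn means correlated with 0.0949 on average, 6 of 12 pairs over 0.1, and those of differently numbered arrays with -0.0313, 2 of 36 pairs over 0.1. On average the same-numbered arrays were thus more alike. No block was used in the main comparisons because the authors' methods use none. Results with the sample number as a block are given below.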

Additional observations from a re-analysis of the deposited data

Results flagged for a closer look

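Of the 27 groups of 4 arrays (9 genes in 3 turns), 1 had a value far from the others. The Strc signal of basal replicate 2 was 28.3, while the other 3 basal arrays lay between 37.3 and 38.6. On the log2 scale the gap to the nearest of them was 0.886 of the whole range, above Dixon's critical value of 0.829. Chance flags about 1 in 20 such groups.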

How the results depend on the processing

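With the 75th percentile scaling, 4 genes were called higher in the apical than in the basal turn, 0 between apical and middle and 3 between middle and basal turn. Scaling to the hair cell markers left 2 calls between apical and basal turn, 0 between middle and basal turn and 9 among the other stereocilia genes, 8 of them higher in the basal turn. Scaling to the outer hair cell markers gave 3 calls, all higher in the basal turn, 20 among the other stereocilia genes and 203 probes, 175 of them higher in the basal turn. The median over all genes, apical minus basal, was -0.91 with the hair cell markers and -1.77 with the outer hair cell markers. The share of all genes or probes called under these scalings is not given here. The counts therefore do not set the stereocilia genes apart from other genes. Scaling to the spike-in probes left 3 calls between apical and basal turn, and 1 apical and 2 basal calls among the other stereocilia genes. Normexp correction left 0 calls in both comparisons with the basal turn, by construction with smaller differences, and 1 among the other stereocilia genes. Adding 16 before log2 left 0 calls between middle and basal turn and 1 among the other genes. A 1.5-fold limit gave 2 calls between apical and middle turn and 9 among the other genes. The median of probes left 1 gene past the test between apical and middle turn.

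Leaving out single arrays gave 4 to 4 calls between apical and basal turn, 3 to 4 between middle and basal turn and 0 to 0 between apical and middle turn. The genes past the test of the comparison were 8 to 8, 5 to 7 and 2 to 5 in that order, with 5 without middle replicate 2, the other stereocilia genes 3 to 4, and the probes 120 to 135. With the sample number as a replicate block, there were 4, 3 and 0 calls, 8, 6 and 2 genes past the test and 137 probes. The lost gene was Myo3a between apical and middle turn, and the block changed no other gene's call.

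Signs turned as follows (log2). Gpr98, apical minus basal, was -0.02 with quantile normalization, -0.02 with scaling to the median, -0.0031 with normexp, -0.10 with the mean linear signal, -0.02 with probes above background in a turn and -0.11 with probes above background on all arrays. With the mean linear signal Espn was -0.07 (apical minus basal) and -0.16 (middle minus basal). With the spike-in probes Gpr98 was -0.32 and Clic5 -0.04 (apical minus basal), and -0.05 and -0.10 (middle minus basal). With the hair cell markers, apical minus basal was -0.78 for Gpr98, -0.37 for Espn, -0.03 for Myo15 and -0.50 for Clic5, and middle minus basal -0.55, -0.47, -0.23 and -0.60, with -0.25 for Myo3a. With the outer hair cell markers, apical minus basal was -1.64 for Gpr98, -1.24 for Espn, -0.53 for Fscn2, -0.89 for Myo15, -0.85 for Myo3a and -1.36 for Clic5, and middle minus basal -1.04, -0.97, -0.36, -0.72, -0.74 and -1.10, with -0.13 for Ptprq. There, apical minus middle was -0.27 for Espn, -0.17 for Fscn2, -0.17 for Myo15, -0.11 for Myo3a and -0.26 for Clic5. Beyond what the scalings show by construction, the cause was not tested. For dim genes such as Grxcr1 and Myo3a, of which no probe was above background on all 12 arrays, the signal over background limits the size of the difference.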
